A study of Mus musculus with 30 samples.

Results

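Tissue-type plasminogen activator (Plat), urokinase (Plau), the urokinase receptor (Plaur) and the activator inhibitors protease nexin 1 (Serpine2) and PAI-2 (Serpinb2) were followed across 6 groups of MC38 tumours. These 5 genes were taken by symbol from the 55471 genes of the count table, by a rule without measured values. Earlier results of these data were known when they were chosen. All 5 were found, and 4 of them had enough counts to be tested; Serpinb2 did not. Other genes of the same pathway are reported beside them from a list.

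Plasminogen is an inactive protease precursor that circulates in blood and is made mainly by the liver. Plat and Plau cut it into plasmin, a broad serine protease that dissolves fibrin, degrades matrix proteins and activates matrix metalloproteinases and latent growth factors; Plat works best on fibrin, while Plau works at the cell surface, held there by the lipid-anchored receptor Plaur. Serpine2 and Serpinb2 are serpins, inhibitors that trap their protease in a covalent complex, which surface receptors of the LDL receptor family then clear. In tumours the system is studied for its part in invasion, vessel growth and the entry of leukocytes, and its members can be made by tumour cells, fibroblasts, endothelial cells and macrophages.

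MC38 is a mouse colon carcinoma line. For this study 1000000 unmodified cells (WT), cells with a loss-of-function mutation in B2m (B2mKO) or cells with one in Jak1 (Jak1KO) were placed under the skin of female C57BL/6 mice aged 6 to 8 weeks. B2m pairs with the heavy chains of MHC class I, and the kinase Jak1 relays interferon signals; the host cells of each tumour kept both genes, and the labels do not say whether a mutant line was 1 clone. Mice of every group received an antibody intravenously on days 7, 10 and 13, either 100 µg directed at PD-1, an inhibitory receptor of T cells (aPD1), or 100 µg of control IgG1, and tumours were taken on day 14. The 6 groups are therefore WT, B2mKO and Jak1KO tumours, each with IgG1 and with aPD1, with 5 libraries in each and 30 in all. Since the labels leave it unsaid whether any mouse gave more than 1 library, the p-values describe only the spread among these libraries, which may be partly technical.

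Promoter sequence, the 250 bases before a RefSeq start site, was at hand for 3 of the 5 genes (RefSeq, GRCm38.p6, which has the coordinates of the files' GRCm38 build). It is shown for the receptor and both inhibitors because their base composition differs widely. The table gives 2 start sites for Serpinb2, and the sequence before the first of them is printed. All sequences read 5′ to 3′ on the gene's own strand, with matches to the searched motifs in capitals: the AP-1 motif TGANTCA, the TATA box TATAAA and the GC box GGGCGG, whose copies can overlap.
Plaur, chr7:24462233-24462482, plus strand: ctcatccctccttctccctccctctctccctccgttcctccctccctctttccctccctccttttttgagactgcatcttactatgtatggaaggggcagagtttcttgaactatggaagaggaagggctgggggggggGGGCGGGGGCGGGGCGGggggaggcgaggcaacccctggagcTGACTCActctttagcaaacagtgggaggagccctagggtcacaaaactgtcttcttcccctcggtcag
Serpine2, chr1:79858666-79858915, minus strand: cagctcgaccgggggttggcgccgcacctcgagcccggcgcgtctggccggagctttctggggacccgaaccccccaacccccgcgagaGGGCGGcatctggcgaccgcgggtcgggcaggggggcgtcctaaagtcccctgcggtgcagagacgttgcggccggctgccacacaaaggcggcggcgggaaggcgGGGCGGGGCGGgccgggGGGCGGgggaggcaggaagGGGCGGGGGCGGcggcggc
Serpinb2, chr1:107511173-107511422, plus strand: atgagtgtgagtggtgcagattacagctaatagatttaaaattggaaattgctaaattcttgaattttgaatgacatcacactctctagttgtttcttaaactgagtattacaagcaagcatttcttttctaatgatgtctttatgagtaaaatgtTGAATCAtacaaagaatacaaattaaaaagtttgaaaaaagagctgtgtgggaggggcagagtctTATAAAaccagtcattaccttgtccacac

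The Plaur stretch was 59.6% G and C and the Serpine2 stretch 78.8%, while the Serpinb2 stretch was 32.4%, against a median of 52.4% and a 5th to 95th percentile of 34.8% to 73.6% over all 32851 promoter windows of the table. The Serpine2 stretch lay above and the printed Serpinb2 stretch below that range, but the stretch before the other Serpinb2 start site, chr1:107511260-107511509, was 38.4% G and C and lay inside it. Plaur had 1 AP-1 match, TGACTCA, 69 bases before the start site, and 3 GC boxes that begin 111, 105 and 100 bases before it. Serpine2 had 6 GC boxes, 5 of them within the last 55 bases before the start site, and no AP-1 or TATA match. Serpinb2 had an AP-1 match, TGAATCA, 94 bases before its first start site and a TATA box 29 bases before it; counted from its other start site, the same matches begin 181 and 116 bases before. Among all windows of 300 bases (250 before and 50 after the start site, both strands), an AP-1 match was found in 7.81%, a TATA box in 13.6% and a GC box in 35.7%. The interferon response element core GAAANNGAA (8.56% of windows), the NF-kB motif GGGANTTTC (1.11%) and the cyclic AMP element TGACGTCA (1.79%) matched none of these windows. A match is a match of letters only.

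In GRCm38 coordinates of the files, Plat spans chr8:22757727-22782844 on the plus strand, with 6241 exonic bases. Plau spans chr14:20836660-20843385 (plus, 2367 bases) and Plaur chr7:24462484-24475968 (plus, 2617 bases). Serpine2 spans chr1:79794197-79861180 (minus, 8287 bases) and Serpinb2 chr1:107511423-107535478 (plus, 2349 bases). Plat, Plau, Plaur and Serpine2 overlap no other annotated gene, and Serpinb2 shares 291 exonic bases with Serpinb10, which had 30 counts over all libraries.

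Library totals ran from 17629795 to 25944701 counts. B2m was at 501 to 963 CPM (counts per 1000000 counts of the scaled library total) in B2mKO and 1965 to 5459 CPM in WT libraries, and Jak1 at 64.4 to 81.9 CPM in Jak1KO and 182 to 255 CPM in WT libraries. Of 8 markers of simple epithelium, Cdx2 had no count in any of the 30 libraries, and Epcam, Vil1, Krt8, Krt18, Krt19 and Krt20 stayed at or under 6.79 CPM, while Cdh1 was at 1.53 to 15.4 CPM. The 8 summed to 2.03 to 31.3 CPM, and 1 of the 5 tested, Cdh1, was called higher with aPD1 in WT tumours (edgeR adjusted p = 0.0152). Markers of fibroblasts and macrophages were abundant. WT IgG1 replicate 3 and B2mKO aPD1 replicate 2 stood apart from their groups over all genes. Their root mean square log2 deviation was 0.680 and 0.685, against at most 0.463 in the other libraries. For Plat, most fitted differences that rest on them are given with and without them. For Plaur, this holds for B2mKO against WT tumours with aPD1. Differences of Plau and Serpine2 are not given without both. Correlations, and the fits of other named genes, are given with them only. In whole tumour tissue, fewer cells of a type and less RNA per cell cannot be told apart.

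Each comparison was tested over 15505 genes with edgeR's quasi-likelihood test, and a gene is called at a Benjamini-Hochberg adjusted p under 0.05. Over 11 comparisons, 10 of the 44 results of the 4 tested genes were called: 6 for Plat, 3 for Plau, 1 for Plaur and none for Serpine2. With aPD1 against IgG1, 1 of the 4 was called in WT tumours, where 4.06% of all genes were called, and none in B2mKO or Jak1KO tumours. There edgeR called 0 genes at all, and 468 and 152 genes had an unadjusted p under 0.05; the count was 0 with limma voom and with DESeq2 too. Against WT, B2mKO tumours had 0 of 4 called with IgG1 (20.6% of all genes) and 3 of 4 with aPD1 (19.7%); Jak1KO tumours had 1 of 4 with IgG1 (17.9%) and 1 of 4 with aPD1 (20% of all genes). Between B2mKO and Jak1KO tumours, 2 of 4 were called with each antibody, beside 28.1% of all genes with IgG1 and 28.1% with aPD1. No member was called in the tests of whether the aPD1 effect differed from that in WT, which called 0.0967% of genes for B2mKO and 0% for Jak1KO. With 4 genes, these shares are a description only. Comparisons that use the same group share its libraries and are not independent.

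**Figure D1:**
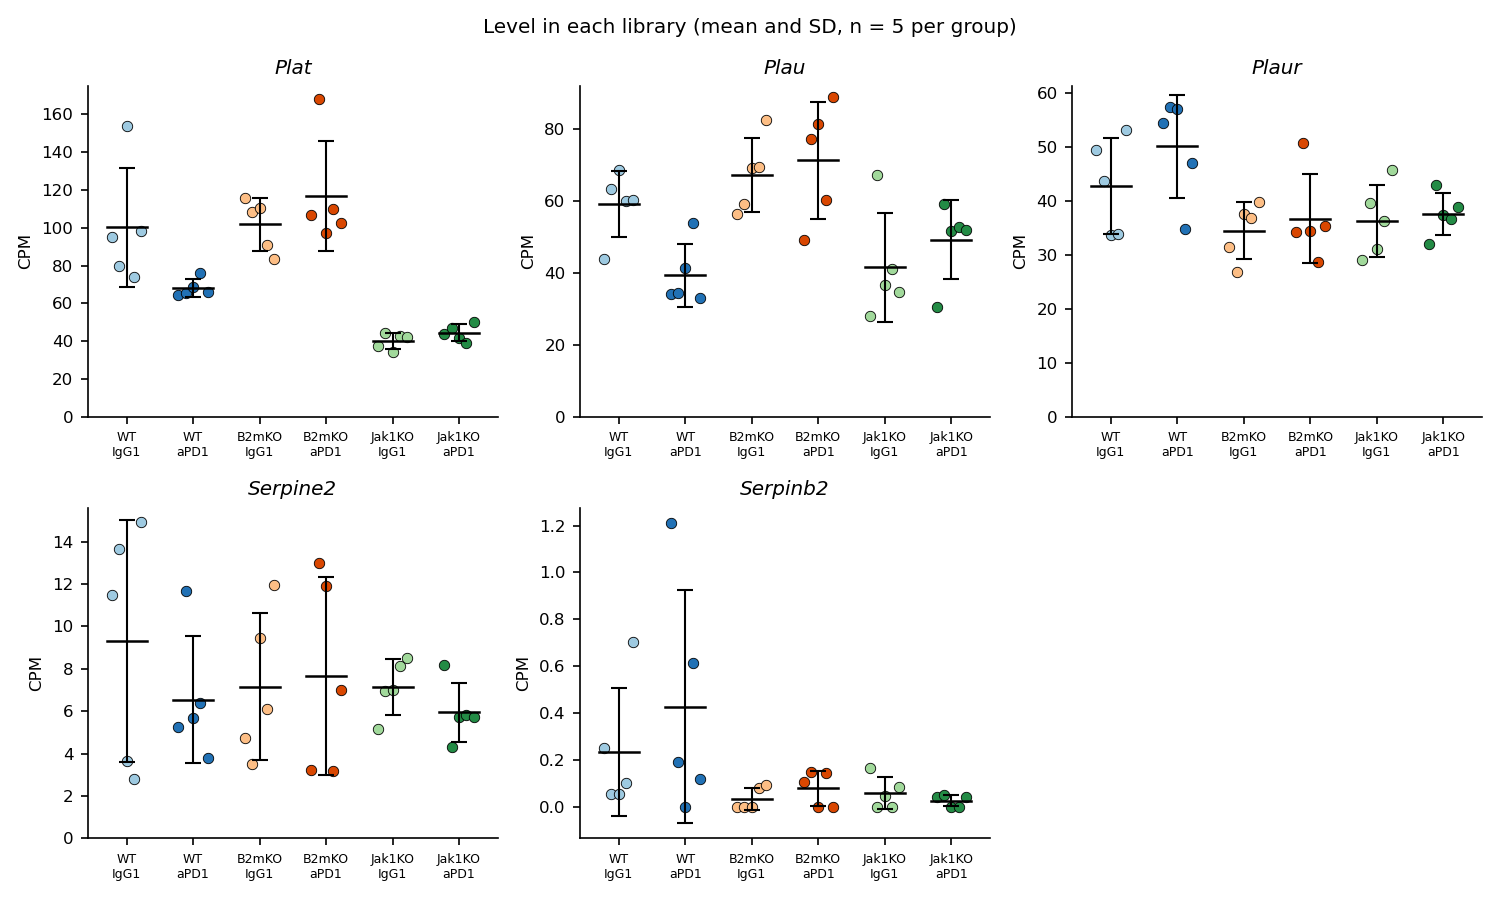
Level of the 5 genes in each of the 30 libraries (y axis, CPM; x axis, the 6 groups of tumour genotype and antibody). Points are libraries and bars the mean and SD of 5. The 10 Jak1KO libraries lie at 34.4 to 50.4 CPM for Plat, below every other library, while the groups of Plaur and Serpine2 overlap throughout.

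Plat, the activator that acts on fibrin, was the member that differed most between genotypes. Its level in WT tumours with IgG1 was 94.9, 79.8, 154, 74.0 and 98.5 CPM in replicates 1 to 5, and with aPD1 64.5, 65.5, 68.4, 76.3 and 66.2 CPM. B2mKO tumours held 116, 108, 110.2, 91.0 and 83.3 CPM with IgG1 and 107, 168, 97.4, 110.0 and 102 CPM with aPD1. Jak1KO tumours held 37.4, 44.2, 34.4, 42.7 and 42.2 CPM with IgG1 and 44.1, 46.8, 41.7, 38.8 and 50.4 CPM with aPD1. The Jak1KO libraries were the lowest with either antibody, and the highest value of all, 168 CPM, was B2mKO aPD1 replicate 2, one of the libraries that stood apart.

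Ordered by mean, Plat was at 117 ± 29.1 CPM in B2mKO aPD1, 102 ± 13.8 in B2mKO IgG1, 100.2 ± 31.5 in WT IgG1, 68.2 ± 4.75 in WT aPD1, 44.4 ± 4.46 in Jak1KO aPD1 and 40.2 ± 4.10 in Jak1KO IgG1 tumours (SD, n = 5 each). Among neighbours in that order, the WT aPD1 and Jak1KO aPD1 libraries did not overlap, and the other 4 neighbouring pairs did. The 2 Jak1KO groups were the tightest together with WT aPD1.

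With the control antibody, Plat fell by 1.32 ± 0.16 (SE) on the log2 scale in Jak1KO against WT tumours (edgeR adjusted p = 5.59e-07), and no library of one group reached the range of the other. Non-overlap with the knockout lower was seen for 8.09% of all genes in that comparison. In B2mKO against WT tumours the difference was 0.02 ± 0.15, with a 95% interval of -0.29 to 0.34 (edgeR adjusted p = 0.933), and without the libraries that stood apart it was 0.24 ± 0.10 (edgeR adjusted p = 0.0743). B2mKO exceeded Jak1KO tumours by 1.34 ± 0.16 (edgeR adjusted p = 1.9e-07), again without overlap, as for 14% of all genes in that direction. Without the libraries that stood apart, Plat differed by -1.13 between Jak1KO and WT tumours (edgeR adjusted p = 4.13e-09).

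With aPD1, the order B2mKO, WT, Jak1KO separated fully. B2mKO tumours exceeded WT tumours in Plat by 0.78 ± 0.15 (edgeR adjusted p = 0.000617). Jak1KO tumours were lower than WT tumours, with a log2 fold change of -0.62 ± 0.16 (edgeR adjusted p = 0.00461). Neither pair of groups overlapped, a pattern that 5.37% of all genes showed in the first direction and 10.3% in the second. B2mKO exceeded Jak1KO tumours by 1.40 ± 0.16 (edgeR adjusted p = 1.12e-07), also without overlap (10.6% of genes in that direction). Leaving out both libraries that stood apart gave 0.62, -0.64 and 1.26 for these 3 differences, each still called by edgeR (adjusted p = 3.13e-05, 7.94e-06 and 3.25e-10).

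Within a genotype, the antibody moved Plat less. In WT tumours Plat fell by 0.55 ± 0.15 with aPD1 (edgeR adjusted p = 0.0379), although the lowest IgG1 libraries, at 74.0 and 79.8 CPM, were close to the highest aPD1 library at 76.3 CPM. Genes called lower made up 0.58% of all genes in this comparison. The call rests on few libraries: without WT IgG1 replicate 3, the one at 154 CPM, the difference was -0.35 (edgeR adjusted p = 0.157), and 6 other single libraries also ended the call when left out. With both libraries that stood apart left out, the difference was -0.35 too and was called (edgeR adjusted p = 0.0323). In B2mKO tumours the aPD1 difference was 0.20 ± 0.15 (95% interval -0.11 to 0.52), or 0.04 ± 0.10 without the libraries that stood apart, and in Jak1KO tumours 0.14 ± 0.16 (95% interval -0.18 to 0.46). The aPD1 effect in B2mKO minus that in WT tumours was 0.76 ± 0.22 (edgeR adjusted p = 0.165), or 0.39 without the libraries that stood apart, and in Jak1KO minus WT 0.70 ± 0.22 (edgeR adjusted p = 0.32), so a different aPD1 response between genotypes was not shown.

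**Figure D2:**
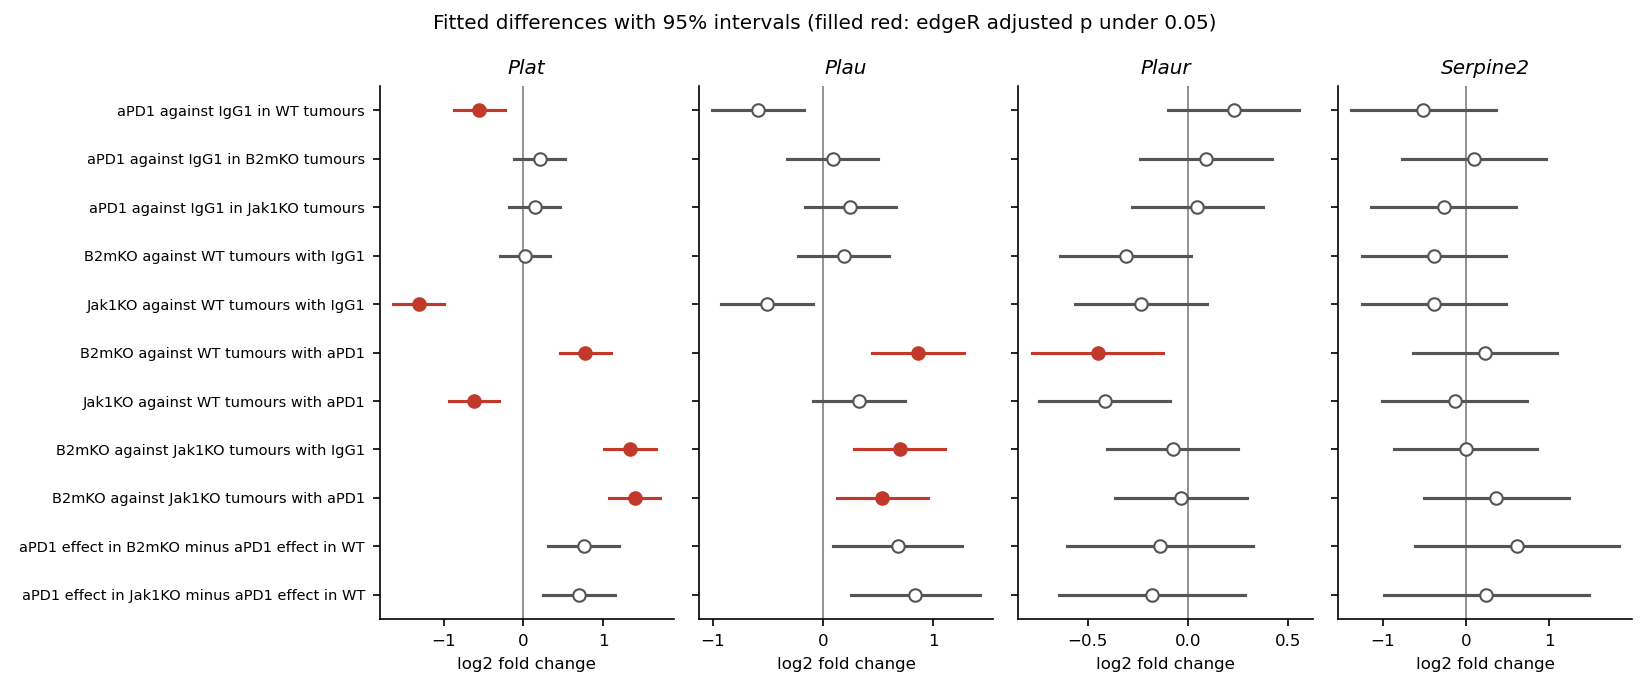
Fitted log2 fold change (x axis) of the 4 tested genes in the 11 comparisons (y axis), with 95% intervals; filled red points have an edgeR adjusted p under 0.05. Plat is called in 6 comparisons and Plau in 3, Plaur only in B2mKO against WT tumours with aPD1, and each interval of Serpine2 spans 0.

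Plau, the activator that works on the cell surface, varied more between libraries of a group than Plat, with a median coefficient of variation of 22.2% over the 6 groups against 11.9%. It was at 44.0, 63.2, 68.7, 59.8 and 60.2 CPM in WT IgG1 libraries and 34.0, 34.4, 41.3, 53.8 and 33.0 CPM in WT aPD1 libraries. In B2mKO tumours it was at 56.2, 59.1, 69.0, 69.4 and 82.5 CPM with IgG1 and at 49.2, 77.2, 81.3, 60.1 and 88.8 CPM with aPD1. In Jak1KO tumours it was at 28.0, 67.1, 36.7, 41.2 and 34.6 CPM with IgG1 and at 30.6, 59.3, 51.7, 52.8 and 51.9 CPM with aPD1. The B2mKO libraries held the highest values, and 4 of the 5 WT aPD1 libraries lay under every B2mKO library. By mean the order was B2mKO aPD1 (71.3 ± 16.2 CPM), B2mKO IgG1 (67.3 ± 10.3), WT IgG1 (59.2 ± 9.22), Jak1KO aPD1 (49.2 ± 10.9), Jak1KO IgG1 (41.5 ± 15.1) and WT aPD1 (39.3 ± 8.74; SD, n = 5 each), and every group overlapped the next.

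With aPD1, B2mKO tumours had more Plau than WT tumours, by 0.86 ± 0.20 on the log2 scale (edgeR adjusted p = 0.00318), with 1 WT library, replicate 4 at 53.8 CPM, above the lowest B2mKO library. With IgG1 the same contrast gave 0.19 ± 0.20 (95% interval -0.23 to 0.60). B2mKO exceeded Jak1KO tumours by 0.70 ± 0.20 with IgG1 (edgeR adjusted p = 0.0101) and by 0.54 ± 0.20 with aPD1 (edgeR adjusted p = 0.0472), with overlapping groups in both. The aPD1 call was lost without any 1 of 7 libraries (B2mKO aPD1 replicates 2, 3 and 5 and Jak1KO aPD1 replicates 1, 3, 4 and 5), with differences between 0.40 and 0.64 over all libraries left out in turn.

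Jak1KO against WT tumours gave -0.51 ± 0.20 for Plau with IgG1 (edgeR adjusted p = 0.0794) and 0.33 ± 0.20 with aPD1 (edgeR adjusted p = 0.28), neither called. The IgG1 difference was -0.75 and was called (edgeR adjusted p = 0.00668) without Jak1KO IgG1 replicate 2, the library at 67.1 CPM. The aPD1 difference was -0.59 ± 0.20 in WT tumours (edgeR adjusted p = 0.105), 0.09 ± 0.20 in B2mKO tumours and 0.25 ± 0.20 in Jak1KO tumours. It was -0.73 in WT tumours, and called (edgeR adjusted p = 0.0316), without WT aPD1 replicate 4. The differences of these effects from that in WT were 0.68 ± 0.29 for B2mKO and 0.84 ± 0.29 for Jak1KO tumours (edgeR adjusted p = 0.278 and 0.36).

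Markers of other cells moved with some of these contrasts. The summed level of 8 fibroblast markers was 13809 to 31033 CPM in B2mKO IgG1 and 9693 to 22760 CPM in B2mKO aPD1 libraries, against 6976 to 13241 and 4872 to 9772 CPM in WT and 7490 to 9828 and 8829 to 10039 CPM in Jak1KO libraries. Of the 8, B2mKO tumours had 6 called higher against WT with each antibody, and 5 (IgG1) and 4 (aPD1) called higher against Jak1KO tumours. In Jak1KO against WT tumours with IgG1, where Plat fell, none was called higher and 1 lower. Within groups the mean log2 CPM of the 8 fibroblast markers had r = -0.26 with Plat and -0.16 with Plau over 30 libraries. Each point shares its library's depth and tissue makeup. The 6 endothelial markers summed to 107 to 213 CPM in B2mKO aPD1 and 95.6 to 148 CPM in WT aPD1 libraries, with 4 of 6 called higher in B2mKO. The part of fibroblasts and endothelial cells in the B2mKO differences was not tested.

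Counts per kb of exon set the genes on a common scale of length, with all annotated exonic bases of a gene as its length. A gene whose expressed transcripts are shorter than this is understated. Transcript lengths were not used, so the order of genes on this scale depends on the annotated lengths. On this scale (CPM per kb) Plau lay above Plat in 30 of 30 libraries, whereas in CPM the mean of Plat was the higher in both WT and both B2mKO groups. The ratio of Plau to Plat per length averaged 1.65 ± 0.456 in WT IgG1, 1.51 ± 0.222 in WT aPD1, 1.80 ± 0.529 in B2mKO IgG1 and 1.67 ± 0.533 in B2mKO aPD1 libraries. In Jak1KO tumours, the ones low in Plat, it averaged 2.70 ± 0.802 with IgG1 and 2.95 ± 0.702 with aPD1 (SD, n = 5 each). Single libraries ran from 1.18 to 2.61 in WT and B2mKO and from 1.83 to 4.01 in Jak1KO tumours, so the ranges overlapped.

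**Figure D3:**
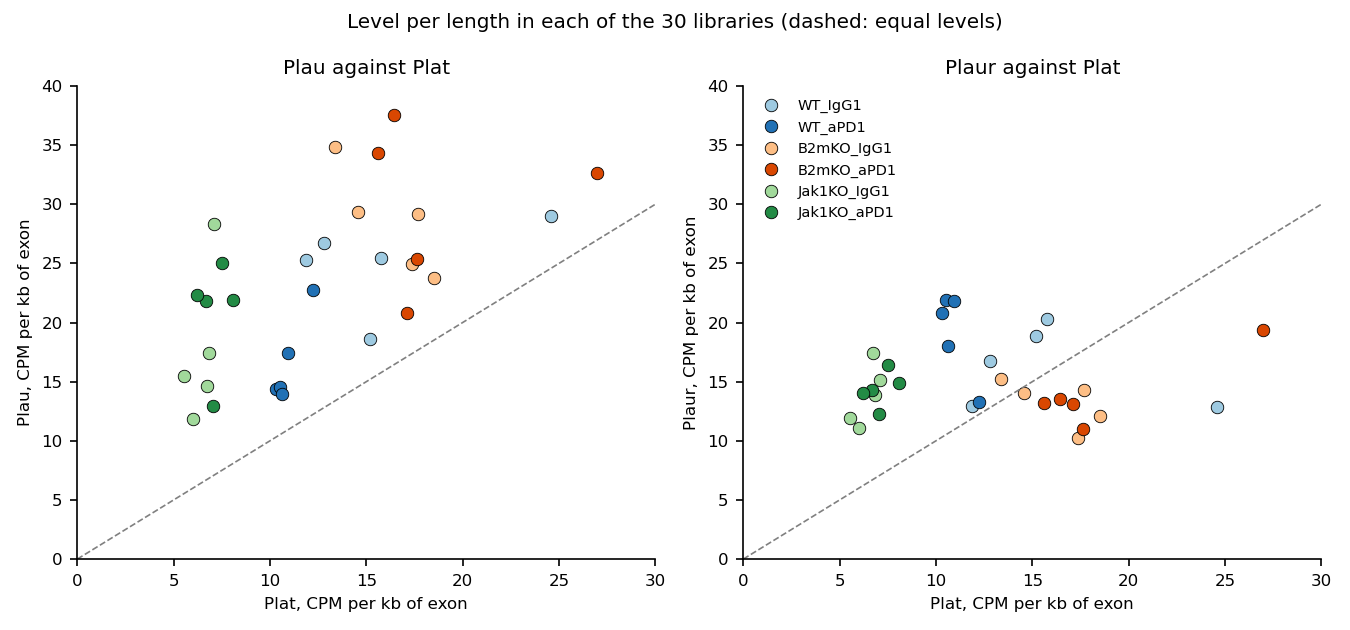
Plau (left) and Plaur (right) against Plat in each library, in CPM per kb of exon on both axes; points are the 30 libraries, coloured by group, and the dashed line marks equal levels. Plau lies above the line in 30 of 30 libraries, and Plaur lies above it in 20 of 30, including all 10 Jak1KO libraries.

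Plaur, the receptor that holds Plau at the cell surface, was at 49.4, 43.8, 33.7, 33.9 and 53.1 CPM in WT IgG1 and 54.4, 57.4, 57.0, 34.8 and 47.1 CPM in WT aPD1 libraries. B2mKO libraries held 31.6, 26.8, 37.5, 36.8 and 39.8 CPM with IgG1 and 34.2, 50.7, 34.4, 28.8 and 35.4 CPM with aPD1. Jak1KO libraries held 29.0, 39.6, 31.2, 36.3 and 45.7 CPM with IgG1 and 32.1, 42.9, 37.4, 36.8 and 38.9 CPM with aPD1. The 3 highest values of all were WT aPD1 libraries, but WT aPD1 replicate 4 was as low as most knockout libraries. The group means ran from 50.1 ± 9.54 in WT aPD1 and 42.8 ± 8.85 in WT IgG1, through 37.6 ± 3.92 in Jak1KO aPD1, 36.7 ± 8.26 in B2mKO aPD1 and 36.3 ± 6.67 in Jak1KO IgG1, to 34.5 ± 5.24 CPM in B2mKO IgG1 (SD, n = 5 each), and every group overlapped the next.

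Plaur fell by 0.45 ± 0.16 in B2mKO against WT tumours with aPD1 (edgeR adjusted p = 0.0469). Leaving out single libraries gave -0.58 to -0.37 with an adjusted p of up to 0.131, and the call was lost without any 1 of 8 libraries (WT aPD1 replicates 1, 2, 3 and 5 and B2mKO aPD1 replicates 1, 3, 4 and 5). It was also lost without the filter on low counts (edgeR adjusted p = 0.0629) and with only the groups compared (edgeR adjusted p = 0.127), and it held with both libraries that stood apart left out (-0.58, edgeR adjusted p = 0.00435). In Jak1KO against WT tumours with aPD1 the difference was nearly the same size, -0.41 ± 0.16, and was not called (edgeR adjusted p = 0.0671), but it was called with both libraries that stood apart left out (-0.43, edgeR adjusted p = 0.0171). With IgG1 the differences from WT were -0.31 ± 0.16 in B2mKO and -0.23 ± 0.16 in Jak1KO tumours (edgeR adjusted p = 0.172 and 0.321). The aPD1 difference was 0.23 ± 0.16 in WT (95% interval -0.10 to 0.56), 0.09 ± 0.16 in B2mKO and 0.05 ± 0.16 in Jak1KO tumours. B2mKO and Jak1KO tumours differed by -0.08 ± 0.16 with IgG1 (95% interval -0.40 to 0.25) and by -0.04 ± 0.16 with aPD1 (95% interval -0.36 to 0.29). Summed dendritic markers were 51.1 to 188 CPM in WT aPD1 libraries against 21.2 to 43.2 CPM in B2mKO aPD1 and 13.2 to 37.7 CPM in Jak1KO aPD1 libraries, with 3 of 4 called lower in each knockout; their part in the Plaur difference was not tested.

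Per kb of exon, the receptor was under its ligand Plau in 24 of 30 libraries. In WT aPD1 tumours the order was turned in 4 of 5 libraries, with group means of 19.2 for Plaur and 16.6 CPM per kb for Plau. Against Plat, Plaur was higher in 10 of 10 Jak1KO libraries and 9 of 10 WT libraries, and lower in 9 of 10 B2mKO libraries.

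Serpine2, a secreted serpin that inhibits thrombin, Plau and Plat, was the most variable tested member, with a within-group coefficient of variation of 18.4% to 61.2%. It ran from 2.79 to 14.9 CPM in WT IgG1, 3.78 to 11.7 in WT aPD1, 3.5 to 11.9 in B2mKO IgG1, 3.16 to 13.0 in B2mKO aPD1, 5.14 to 8.53 in Jak1KO IgG1 and 4.30 to 8.18 CPM in Jak1KO aPD1 libraries. WT IgG1 libraries fell apart into values of 11.5, 13.7 and 14.9 CPM and values of 3.67 and 2.79 CPM, while the Jak1KO libraries were the closest together. The group means lay between 5.95 ± 1.39 (Jak1KO aPD1) and 9.31 ± 5.70 CPM (WT IgG1; SD, n = 5 each), and each group overlapped the next. No comparison called it: differences between groups ran from -0.51 ± 0.42 (aPD1 in WT tumours, edgeR adjusted p = 0.553) to 0.36 ± 0.43 (B2mKO against Jak1KO tumours with aPD1, edgeR adjusted p = 0.564). The aPD1 effect in B2mKO minus that in WT tumours was 0.61 ± 0.60 (edgeR adjusted p = 0.566). In Jak1KO minus WT it was 0.25 ± 0.60 (edgeR adjusted p = 0.918). The 95% interval of the aPD1 difference in WT tumours, -1.38 to 0.36, shows how large a change could have gone undetected. Per kb of exon Serpine2 lay below Plat, Plau and Plaur in 30 of 30 libraries.

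Serpinb2, which encodes PAI-2, an inhibitor of Plau that stays largely inside the cell, was barely detected. It had 89 counts in all libraries together and none in 10 of the 30. In WT tumours the counts were 6, 1, 1, 2 and 16 with IgG1 and 22, 4, 0, 13 and 3 with aPD1. In B2mKO tumours they were 0, 0, 0, 2 and 2 with IgG1 and 2, 3, 0, 3 and 0 with aPD1, and in Jak1KO tumours 3, 0, 1, 0 and 2 with IgG1 and 1, 1, 0, 0 and 1 with aPD1. Most counts thus came from 4 WT libraries, and the WT groups, with 26 and 42 counts, also contain libraries as low as the knockouts, whose groups had 3 to 8 counts each. Tested without the filter on low counts over 34952 genes, of which 2431 were called in that comparison, Serpinb2 was lower in Jak1KO than in WT tumours with aPD1 (edgeR adjusted p = 0.0163), on 3 against 42 counts. In the other 3 knockout against WT comparisons it was not called (edgeR adjusted p = 0.113 to 0.27).

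Plg, the gene of plasminogen itself, had 3 counts over all 30 libraries, 1 each in a WT IgG1, a WT aPD1 and a B2mKO IgG1 library. Its transcript was thus at most marginally detected. Plg shares 420 of its 3711 exonic bases with Slc22a3 on the opposite strand, which had 43 counts over all libraries. The fibrinogen genes Fga, Fgb and Fgg and the plasmin inhibitor Serpinf2 did not pass the filter either. Transcripts of plasminogen receptors were abundant over the 6 groups. Anxa2 averaged 1169 to 1430 CPM, its partner S100a10 174 to 267 CPM and the enolase Eno1 1280 to 1841 CPM. Protein at the cell surface was not measured. S100a10, named after its values were seen, was lower in both knockouts than in WT tumours with either antibody, with log2 fold changes of -0.59 and -0.47 for B2mKO and -0.53 and -0.48 for Jak1KO (IgG1 and aPD1, edgeR adjusted p = 0.00858, 0.033, 0.0194 and 0.0304). Both libraries that stood apart had the highest S100a10 of their groups, WT IgG1 replicate 3 at 365 CPM and B2mKO aPD1 replicate 2 at 304 CPM. Fits of S100a10 without them are not given. Plgrkt, a transmembrane plasminogen receptor, was called in none of the 11 comparisons and averaged 39.6 to 44.9 CPM.

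The list of other genes of the plasminogen system held 61 symbols, of which 60 were found and 45 had enough counts. With aPD1 in WT tumours, 4 of the 45 rose and none fell: the integrin chains Itgb2 (1.41 ± 0.24 on the log2 scale) and Itgam (1.03 ± 0.24), which form a leukocyte receptor that binds Plaur and plasminogen, and the formyl peptide receptors Fpr1 (1.62 ± 0.37) and Fpr2 (2.02 ± 0.51), partners of Plaur on myeloid cells (edgeR adjusted p = 0.00261, 0.0118, 0.0123 and 0.0229). Of all genes, 4.06% were called in either direction in this comparison. The list's median was 0.03 and that of all genes -0.03, so the list as a whole did not shift with these 4 genes. Of the 10 macrophage and monocyte markers 1 was called higher in this comparison, of 4 tested neutrophil markers 1 and of 4 dendritic markers 3. Their median summed levels were higher with aPD1 than with IgG1, with ranges that overlapped. They were 4132 against 2599 CPM for macrophage and monocyte, 25.2 against 7.08 CPM for neutrophil and 130 against 39.7 CPM for dendritic markers. The part of leukocyte number in the rise of these 4 genes was not tested. No gene of the list was called with aPD1 in B2mKO or Jak1KO tumours, nor in the tests of a difference from the WT effect.

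In B2mKO against WT tumours 11 of the 45 list genes were called higher and 4 lower with IgG1. With aPD1, 10 were called higher and 8 lower. Of all genes, 20.6% (IgG1) and 19.7% (aPD1) were called in either direction, so these counts are a description only. The list's medians were 0.14 and -0.03 against 0.00 and 0.00 over all genes. Mrc2, a collagen receptor that binds Plaur, was higher by 1.58 ± 0.22 with IgG1 and 1.51 ± 0.22 with aPD1 (edgeR adjusted p = 1.1e-05 and 1.72e-05). The gelatinase Mmp9 was higher by 1.08 ± 0.19 and 1.17 ± 0.19 (edgeR adjusted p = 0.000181 and 5.79e-05). Vldlr, a receptor that clears complexes of Plau and its inhibitors, was lower, with log2 fold changes of -1.99 ± 0.25 and -1.97 ± 0.25 (edgeR adjusted p = 2.9e-06 and 2.54e-06): its group means were 116 and 110.2 CPM in WT and 29.1 and 28.1 CPM in B2mKO tumours. With IgG1 the thrombin receptor F2r was also higher (0.90 ± 0.14), as was Hgf, a growth factor activated by Plau and related proteases (0.68 ± 0.17), and Pdgfd, a growth factor that Plau activates, was lower (-2.36 ± 0.42). With aPD1 the macrophage lectin Mrc1 (1.76 ± 0.32) and the histone Hist1h2bc, a surface plasminogen binder (1.49 ± 0.27), were higher and Itgb2 was lower (-1.37 ± 0.24).

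In Jak1KO against WT tumours 3 of the 45 list genes were called higher and 8 lower with IgG1. With aPD1, 3 were called higher and 10 lower. Of all genes, 17.9% (IgG1) and 20% (aPD1) were called in either direction. The list's medians were -0.03 and -0.24 against 0.00 and 0.02 over all genes. Pdgfd was lower, with log2 fold changes of -2.55 ± 0.43 with IgG1 and -2.29 ± 0.42 with aPD1, from 4.38 and 3.73 CPM in WT to 0.75 CPM or less in Jak1KO tumours. Hgf was lower too, at -0.72 ± 0.17 and -0.73 ± 0.17 (edgeR adjusted p = 0.00349 and 0.0025). Serpini1, the neural serpin that inhibits Plat, was lower with IgG1 (-1.03 ± 0.22, from a mean of 1.28 to 0.62 CPM), as was the integrin chain Itgb1 (-0.36 ± 0.07). F2r (0.80 ± 0.14 and 0.62 ± 0.13) and Mrc2 (0.91 ± 0.22 and 1.16 ± 0.22) were higher with both antibodies, as in B2mKO tumours, and with aPD1 Itgb2 (-1.37 ± 0.24) and the collagenase Mmp13 (-2.27 ± 0.52) were lower. Both knockouts were compared with the same WT libraries.

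Between the knockouts, B2mKO tumours were called higher than Jak1KO tumours in 10 and lower in 2 of the 45 list genes with IgG1. With aPD1 they were called higher in 9 and lower in 3. Of all genes, 28.1% were called in either direction with each antibody, so these counts are a description only. Medians were 0.10 and 0.15 for the list and -0.02 and -0.01 for all genes. Hgf was higher by 1.40 ± 0.17 and 1.41 ± 0.17 (edgeR adjusted p = 4.44e-07 and 4.55e-07), close in size to the Plat difference, and averaged 150 and 141 CPM in B2mKO against 56.7 and 52.9 CPM in Jak1KO tumours. The gelatinases Mmp2 (1.33 ± 0.22 and 1.19 ± 0.22) and Mmp9 (1.04 ± 0.19 and 0.99 ± 0.19), Serpinb8, an inhibitor of furin (1.16 ± 0.21 and 1.33 ± 0.21), and Pdgfc, a growth factor that Plat activates (0.70 ± 0.15 and 0.76 ± 0.15), were higher with both antibodies, with IgG1 given first. Itgb3 was also higher with IgG1 (1.11 ± 0.23) and Hist1h2bc with aPD1 (1.5 ± 0.27). Fibroblast markers moved with these genes, as given above, and their part was not tested.

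**Figure D4:**
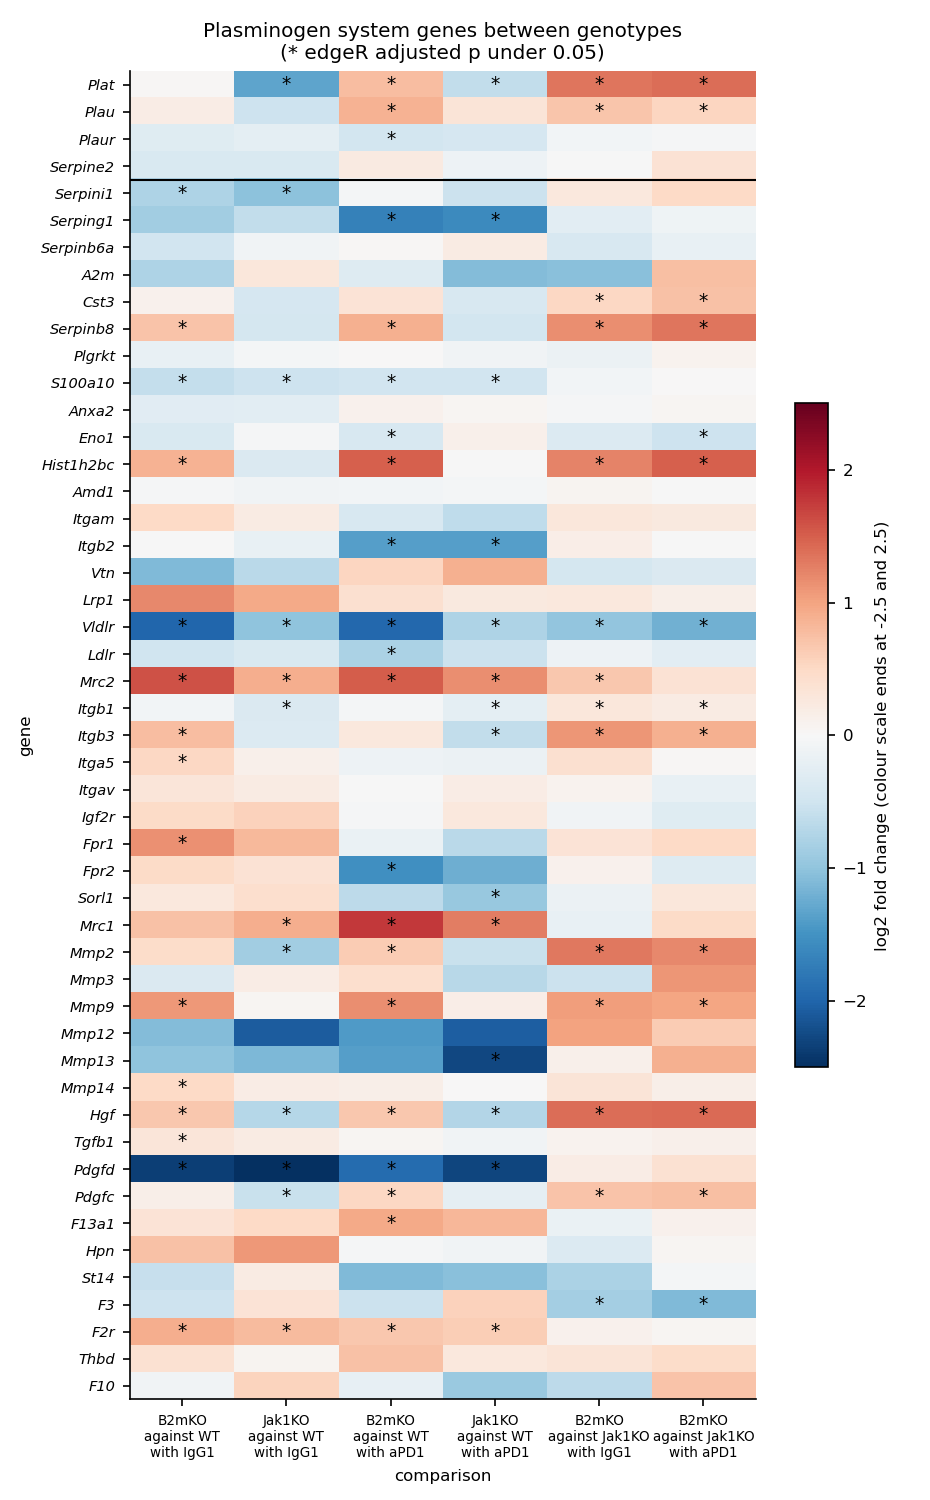
Log2 fold change (colour, scale ends at -2.5 and 2.5) of the 4 tested genes, above the line, and 45 other plasminogen system genes (y axis) in the 6 comparisons between genotypes (x axis); an asterisk marks an edgeR adjusted p under 0.05. Pdgfd and Vldlr are blue against WT in both knockouts, and Hgf and Plat are red in B2mKO against Jak1KO tumours with both antibodies.

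The members did not vary as 1 unit. Over the 30 libraries log2 CPM of Plat and Plau had r = 0.61, which dropped to 0.15 once the 6 group means were removed, so the likeness lay between groups. Plaur and Serpine2 had r = 0.48, and 0.63 within groups. The other 4 pairs lay between -0.16 and 0.14. Libraries share depth and tissue makeup, so these values are descriptions.

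For each member the 5 genes of highest r over 30 libraries were taken from 10350 others of at least 5 CPM, a choice that itself favours high values. For Plat they were Erp44 (0.98, and 0.85 within groups), Pfn2 (0.97 and 0.86), Sec22b (0.96 and 0.77), Bet1 (0.95 and 0.78) and Creb3 (0.95 and 0.77). For Plau they were Ccl12 (0.83 and 0.73), Gpr183 (0.79 and 0.71), Hdac9 (0.78 and 0.60), Slfn4 (0.76 and 0.58) and Cdkn2b (0.76 and 0.42). Plat thus had closer companions than Plau did, within groups too. Both libraries that stood apart were kept, and Plat was the highest of its group in each, at 154 and 168 CPM. The r values without them were not computed.

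For Plaur the list was Mthfd2 (0.88 and 0.88), Ybx3 (0.86 and 0.88), Tma16 (0.81 and 0.74), Steap1 (0.79 and 0.76) and Ebna1bp2 (0.79 and 0.81). For Serpine2 it was Ccdc80 (0.80 and 0.82), Gpx3 (0.79 and 0.85), Col15a1 (0.78 and 0.82), Igfbp7 (0.77 and 0.80) and Acta2, smooth muscle actin (0.72 and 0.79). The 4 lists had no gene in common. Within groups the mean log2 CPM of the 6 endothelial markers had r = 0.66 with Serpine2 and -0.54 with Plat. For the mean of the 10 macrophage and monocyte markers r was 0.04 with Plat, 0.16 with Plau, 0.10 with Plaur and 0.06 with Serpine2. These r values are over 30 libraries, with both libraries that stood apart kept.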

How the data were processed

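RNA from about 50 mg of each tumour was made into TruSeq libraries and read as paired ends, per the labels' protocols. The deposited values are raw gene counts, which the authors obtained using featureCounts 2.0.0 with gene models of Ensembl GRCm38 release 99, with no strand option set, per the file headers. The submitters' processing notes also name the mm10 build, STAR 2.5.2a, edgeR 3.24.3, Cufflinks 2.2.1 and FastQC 0.11.2. Counts in the 30 per-sample tables equalled those in the series table; 1 header (WT aPD1 replicate 2) names another alignment file. The 327 identifiers without a symbol held 0.047% of counts.

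Computed here in R 4.3.3: genes were kept by filterByExpr (minimum count 10, total 15), scaled by TMM (factors 0.939 to 1.04) and fitted in edgeR 4.0.16 with 6 group means over all 30 libraries; p-values were adjusted over 15505 genes. SE is the absolute log2 change over the root of the F statistic. Correlations use log2 CPM with a prior count of 2. The steps were tested on simulated data. Alternatives used other scaling, no filter, DESeq2 1.42.0, limma voom (limma 3.58.1), only the groups compared, a replicate block, and libraries left out.

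The members and gene lists were chosen with earlier results of these data known. Members are named in every comparison, and other list genes where called, at most 6 per comparison by smallest p. Named outside this rule are Plg, Fga, Fgb, Fgg, Serpinf2 and the receptor genes Anxa2, S100a10, Eno1 and Plgrkt. A listed gene and 1 motif are not reported here. Counting without strand cannot separate overlapping genes on opposite strands.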

Additional observations from a re-analysis of the deposited data

Results flagged for a closer look

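Of 30 sets of 5 libraries (5 genes in 6 groups), 2 had 1 library far from the other 4 by Dixon's test (critical ratio 0.71), which chance gives in about 1 of 20 sets. Plat in B2mKO aPD1 replicate 2 was at 168.26 CPM, while the other libraries of that group lay between 97.4 and 110.0 CPM (Dixon ratio 0.822). Plau in Jak1KO aPD1 replicate 1 was at 30.568 CPM, while the other libraries of that group lay between 51.7 and 59.3 CPM (Dixon ratio 0.737). The first of these libraries also stood apart over all genes.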

How the results depend on the processing

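The 44 results of the 4 tested genes were recomputed under 17 to 27 alternatives each, which gave 828 values. Of these, 791 stayed on the same side of the threshold, 30 lost the call, 7 gained it and 0 reversed a call. Some results that were not called changed sign. Plat in B2mKO against WT tumours with IgG1, 0.02 in the report, ran from -0.07 to 0.24. Of the 10 called results, 7 kept the call under every alternative run: Plat in its 5 comparisons between genotypes, and Plau in B2mKO against WT tumours with aPD1 and against Jak1KO tumours with IgG1.

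For aPD1 in WT tumours, the number of members called, 1 in the report, was 0 without the filter, with limma voom, with only the groups compared and with the replicate block, and 0 to 2 with single libraries left out. In B2mKO against Jak1KO tumours with aPD1 it was 2, but 1 without the filter and with only the groups compared, and 1 to 2 with single libraries left out. In Jak1KO against WT tumours with aPD1 it was 1, but 2 with DESeq2, with only the groups compared and without both libraries that stood apart, and 1 to 2 with single libraries left out. In Jak1KO against WT tumours with IgG1 it was 1, and 1 to 2 with single libraries left out. In B2mKO against WT tumours with aPD1, Plaur lost its call without the filter, with only the groups compared and without some single libraries. Plat and Plau kept theirs there under every alternative.

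Same-numbered libraries' deviations from their group means had r from -0.705 to 0.509 over 75 pairs. All 5 pairs were over 0.1 only between the Jak1KO groups with IgG1 and aPD1 (r from 0.108 to 0.432). There the replicate block called 0 genes, as did the fit without it. The block was fitted over all groups together, so it cannot decide whether a pairing within the Jak1KO groups alone matters. That was not tested. In the other pairs of groups the numbers were not taken as a pairing. With the replicate block, Plat in WT tumours lost its call (-0.54, edgeR adjusted p = 0.0632) and Plau in Jak1KO against WT tumours with IgG1 gained one (-0.53, edgeR adjusted p = 0.0258), so 2 members were called there.

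Over all genes, fits of only the groups compared called 56 genes for aPD1 in WT tumours (630 in the report), 1435 (3194) and 1611 (2773) for B2mKO and Jak1KO against WT with IgG1, and 1753 (3061) and 4752 (3106) for the same with aPD1; without both libraries that stood apart the last was 5178. Single libraries left out gave 206 to 1041 for aPD1 in WT tumours. The difference of the aPD1 effect between B2mKO and WT tumours called 15 genes, and 121 with DESeq2, 8 with only the groups compared, 3 with the replicate block, 0 without both libraries that stood apart and 0 to 125 with single libraries left out; for Jak1KO it called 0, 51 with DESeq2 and 0 to 110 with single libraries left out. The causes were not tested.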
